A study of Mus musculus with 17 samples.

Results

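Esrrb, Tfcp2l1, Tbx3, Nr0b1, Nr5a2 and Zfp42 were followed in newly made RNA of mouse embryonic stem cells in which ERK signalling was switched on for 2 h, with and without inhibitors. They were found by symbol in the deposited count table. All 6 were present among its 25899 symbols, and all 6 were among the 14907 genes with enough counts to be tested.

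The cells were of the E14tg2a line (129SV background). In all groups, the controls included, the cells lacked their own Erk1 and Erk2 genes and made FLAG-ERK2 Q103A from a cDNA instead, a mutant kinase that PP1 inhibits. A stably expressed cRAF-ErT2 fusion let 4-hydroxytamoxifen (4OHT) activate RAF in them. For the last 24 h before treatment all cells were held in serum medium containing LIF plus the FGF receptor inhibitor PD173074 (250 nM). They formed 6 groups: DMSO alone, 250 nM 4OHT for 2 h with DMSO, a MEK inhibitor (MEKi, 1 µM) alone, MEKi with 4OHT, PP1 (2 µM) alone, and PP1 with 4OHT. Each group had 1 library from each of clones a, b and c, except DMSO, which had clones b and c. Ethynyl uridine at 5 mM was added 15 minutes before RNA was isolated, and labelled RNA was purified for sequencing. The replicates were 3 clones of 1 cell line. The tests set a group difference against the spread between libraries within groups, with no pairing by clone in the main fit.

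The 6 genes belong to the network that keeps mouse embryonic stem cells in the naive state. ESRRB is an orphan nuclear receptor and TFCP2L1 a grainyhead-like factor; both bind near many of the genes that OCT4 and NANOG bind, and both can sustain self-renewal when overexpressed. TBX3 is a T-box factor acting downstream of LIF signalling. NR5A2 (LRH-1) is a nuclear receptor that binds regulatory DNA of Oct4, and NR0B1 (DAX1) is a receptor-like protein without a DNA-binding domain of the usual kind that works mostly as a corepressor of other nuclear receptors. Zfp42 encodes REX1, a zinc finger protein used as a marker of the naive state. ERK signalling drives exit from that state, which is why MEK inhibitors are used to hold cells in it.

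Promoters of 4 of the 6 members are shown. Promoters are the stretches where this RNA starts and where ERK-responsive or pluripotency factors could be looked for. All 6 members were called in at least 1 comparison, and the 2 Nr5a2 promoters were searched but are not printed. RefSeq promoters (GRCm38.p6, the build called mm10) run from 250 bases before to 50 bases after each start, and the table held 7 promoters, of all members but Tbx3, among 32851. Capitals mark matches, on either strand, to any of 6 motifs: AAGGTCA (core of the ESRRB and NR5A2 half-site), GGTGTGA (T-box), TTTGCAT (octamer, bound by OCT4), CCACCC (KLF), TTCNNNGAA (STAT) and CCGGAAG (ETS). The promoters printed are those of Tfcp2l1 (chr1:118627695-118627994, plus strand), Esrrb, first start (chr12:86360867-86361166, plus strand) and second start (chr12:86421394-86421693, plus strand), Zfp42 (chr8:43306960-43307259, minus strand) and Nr0b1 (chrX:86191525-86191824, plus strand), each 5′ to 3′ on the gene's own strand.
Tfcp2l1: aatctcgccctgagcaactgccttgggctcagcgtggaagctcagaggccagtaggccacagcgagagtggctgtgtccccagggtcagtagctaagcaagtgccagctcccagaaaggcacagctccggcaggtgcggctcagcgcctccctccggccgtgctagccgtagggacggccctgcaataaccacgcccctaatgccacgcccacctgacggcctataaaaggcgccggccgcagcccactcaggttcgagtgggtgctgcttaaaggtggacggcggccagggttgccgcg
Esrrb, first start: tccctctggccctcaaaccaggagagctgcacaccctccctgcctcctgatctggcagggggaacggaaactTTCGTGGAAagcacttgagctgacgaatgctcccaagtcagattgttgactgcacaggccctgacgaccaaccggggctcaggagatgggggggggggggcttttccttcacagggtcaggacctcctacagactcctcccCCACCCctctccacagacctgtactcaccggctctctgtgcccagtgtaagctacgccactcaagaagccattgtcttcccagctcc
Esrrb, second start: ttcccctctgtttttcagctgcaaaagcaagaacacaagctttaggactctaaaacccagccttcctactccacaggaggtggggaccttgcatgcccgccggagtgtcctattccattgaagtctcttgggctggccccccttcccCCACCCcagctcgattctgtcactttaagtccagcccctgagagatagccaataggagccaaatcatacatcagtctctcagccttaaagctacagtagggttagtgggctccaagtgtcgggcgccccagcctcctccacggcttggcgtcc
Zfp42: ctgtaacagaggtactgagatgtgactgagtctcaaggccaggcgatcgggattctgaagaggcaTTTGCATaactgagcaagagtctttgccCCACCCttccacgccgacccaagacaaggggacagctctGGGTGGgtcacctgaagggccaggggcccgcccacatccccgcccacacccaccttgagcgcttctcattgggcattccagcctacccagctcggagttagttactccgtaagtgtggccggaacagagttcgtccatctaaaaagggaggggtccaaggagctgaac
Nr0b1: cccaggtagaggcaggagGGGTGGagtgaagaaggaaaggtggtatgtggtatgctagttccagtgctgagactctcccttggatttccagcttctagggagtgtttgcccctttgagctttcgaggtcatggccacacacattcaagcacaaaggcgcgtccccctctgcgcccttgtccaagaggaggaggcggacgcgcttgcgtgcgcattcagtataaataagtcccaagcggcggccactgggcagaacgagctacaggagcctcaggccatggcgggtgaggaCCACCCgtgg

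In these windows Zfp42 held the only octamer core among the 7 member promoters, from -185 to -179 with the start counted as 0, and 4.63% of all promoters held one. Zfp42 also had 2 matches to the KLF core, at -157 and, on the opposite strand, at -118. The first Esrrb promoter had a STAT match from -178 to -170, a pattern in 8.3% of all promoters. The KLF core was in 5 of the 7 member promoters, against 31.5% of all promoters, and the Tfcp2l1 window had no match to any of the 6 motifs. No member promoter matched the nuclear receptor, T-box or ETS motif, which 4.72%, 3.98% and 8.86% of all promoters held. A match is only a run of letters and no binding was measured here. Nr5a2 has 2 starts in the table, and counts per symbol do not tell starts apart.

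Library totals ran from 5239690 to 11093390 counts, and the members had between 280 counts (Nr0b1) and 15014 counts (Esrrb) in a library. Within a group, log2 levels of 2 libraries had Pearson's r of 0.976 to 0.991 across genes. A group of 14 high-count loci whose share rose and fell together took from 9.38% to 42% of a library's counts, most in the libraries PP1 a, MEKi b and 4OHT b, so the members' fold changes and calls were also computed without these 3 libraries. All 11 embryonic stem cell markers were detected in every library, with a summed level of 1775 to 2693 CPM. The sum does not show shifts of single markers. With 4OHT against DMSO, Nanog (-1.15 on the log2 scale), Fgf4 (-1.23) and Tdgf1 (-0.87) were called lower. Epcam (2.97) and Cdh1 (0.81) were called higher, and 6 were not called. The summed level of 10 fibroblast markers was at most 9.34 CPM, with S100a4 at 0 in all libraries, and 8 markers of 2-cell-like cells summed to at most 4.48 CPM, with Tcstv1 at 0. Dusp6, an ERK-induced phosphatase gene read here as a gauge of the pathway, had mean levels of 77 CPM with DMSO, 278 with 4OHT, 24.5 with MEKi, 5.53 with MEKi and 4OHT, 49 with PP1, and 155 with PP1 and 4OHT. Levels are CPM, counts relative to a library's scaled total after TMM scaling, and are compared only within a gene, since they are not per length.

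Tfcp2l1, Tbx3 and Esrrb fell with 4OHT alone, while Zfp42 rose. Nr0b1 and Nr5a2 did not pass the test. In this comparison of 4OHT with DMSO, 4 of the 6 members were called at an adjusted p under 0.05, 1 of them higher and 3 lower, where 52% of all genes tested were called, 25.7% higher and 26.3% lower. A count of 4 in 6 is therefore near the background share. The median log2 fold change of the 6 genes was -0.28, against -0.02 for all genes tested.

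**Figure D1:**
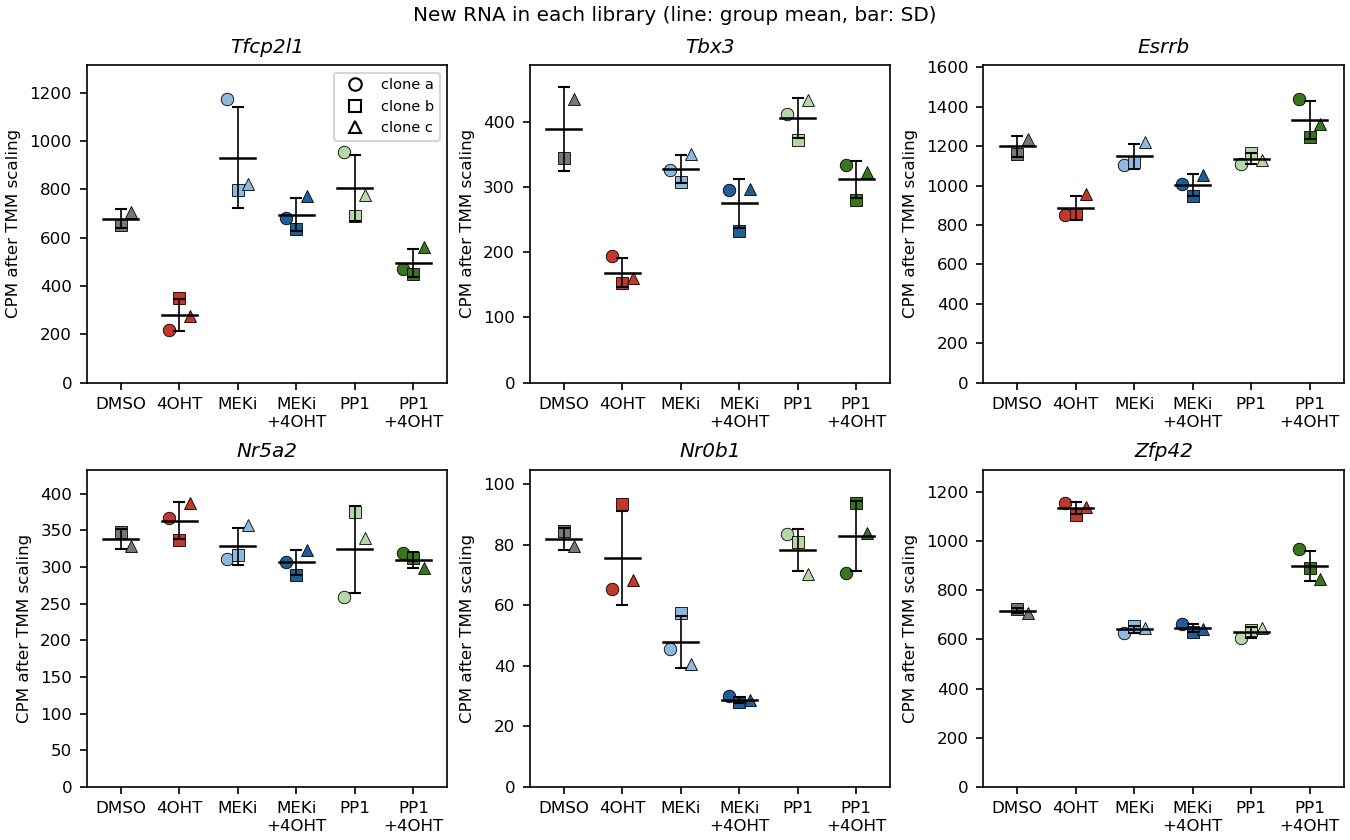
New RNA of the 6 genes in each of the 17 libraries, in CPM after TMM scaling (vertical axis, linear, from 0), by treatment group (horizontal axis). Markers give the clone, the line the group mean and the bar 1 SD; Tfcp2l1 and Tbx3 are lowest in the 3 libraries with 4OHT alone, Zfp42 is highest there, and Nr0b1 is lowest in the 3 libraries with MEKi and 4OHT.

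Tfcp2l1 (ENSMUSG00000026380.10, mm10 chr1:118627945-118685168, plus strand, protein-coding) had the largest fall. Its span holds 3 small annotated genes, Gm22094 and Gm28882 on the opposite strand and Gm23497 on the same strand, none of them a symbol in the count table. With DMSO it was at 651 CPM in clone b and 707 CPM in clone c, and with 4OHT at 218, 349 and 277 CPM in clones a, b and c. The groups did not overlap, and even the highest library with 4OHT was far below the lower control. The log2 fold change was -1.28 ± 0.21 (SE), a 2.42-fold fall (edgeR adjusted p = 0.00021), which placed it 536th from the lowest among the 9874 genes averaging 3 or more in log2 CPM. MEKi alone gave 1174, 799 and 823 CPM, all above both controls, with clone a well above the others, and the difference from DMSO, 0.46 ± 0.21 on the log2 scale, did not pass the test (adjusted p = 0.45). PP1 alone gave 955, 688 and 776 CPM, a range that overlapped the controls. MEKi with 4OHT gave 683, 634 and 771 CPM, and PP1 with 4OHT gave 470, 451 and 560 CPM. The order of group means was thus MEKi (932 ± 210 CPM, SD, n = 3), PP1 (806 ± 136, n = 3), MEKi with 4OHT (696 ± 69.5, n = 3), DMSO (679 ± 39.7, n = 2), PP1 with 4OHT (494 ± 58.3, n = 3) and 4OHT (281 ± 65.9, n = 3). The first 4 overlapped their neighbours, and the last 2 lay apart from each other and from the rest.

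Tbx3 (ENSMUSG00000018604.18, chr5:119670669-119684724, plus strand, protein-coding) fell almost as far. It was at 344 and 434 CPM with DMSO in clones b and c, and at 194, 152 and 160 CPM with 4OHT in clones a, b and c, with no overlap. The log2 fold change was -1.20 ± 0.12 (adjusted p = 1.2e-07), 609th from the lowest of the same 9874 genes. The start of Tbx3 is overlapped on the opposite strand by the antisense gene Tbx3os1, which is no symbol in the count table, and the strand setting of the counting is not given in the sources used here, so reads of the pair cannot be told apart. The inhibitors alone gave 325, 308 and 350 CPM with MEKi and 412, 372 and 433 CPM with PP1, neither called against DMSO (adjusted p = 0.47 and 0.89). With 4OHT added, Tbx3 was at 296, 232 and 297 CPM with MEKi and at 333, 280 and 322 CPM with PP1. Group means descended from PP1 (406 ± 31.3 CPM, n = 3) through DMSO (389 ± 64.1, n = 2), MEKi (328 ± 21.1, n = 3), PP1 with 4OHT (312 ± 28.4, n = 3) and MEKi with 4OHT (275 ± 37.2, n = 3) to 4OHT (169 ± 22.3, n = 3). Every neighbouring pair in that order overlapped except the last, where all 4OHT libraries were below all others.

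Esrrb (ENSMUSG00000021255.17, chr12:86361117-86521628, plus strand, protein-coding) moved less. Its levels were 1162 and 1238 CPM with DMSO and 852, 853 and 957 CPM with 4OHT, again without overlap, for a log2 fold change of -0.44 ± 0.08 (adjusted p = 5.3e-05). MEKi alone (1102, 1120 and 1222 CPM) and PP1 alone (1110, 1166 and 1132 CPM) were close to the controls. With 4OHT added the inhibitors parted: MEKi with 4OHT gave 1009, 947 and 1056 CPM, and PP1 with 4OHT gave 1438, 1246 and 1314 CPM, the latter all above every other library. The order was PP1 with 4OHT (1333 ± 97.6 CPM, n = 3), DMSO (1200.2 ± 53.8, n = 2), MEKi (1148 ± 64.4, n = 3), PP1 (1136 ± 28.2, n = 3), MEKi with 4OHT (1004 ± 54.7, n = 3) and 4OHT (887 ± 60.5, n = 3). DMSO, MEKi and PP1 overlapped each other, and lay below PP1 with 4OHT and above MEKi with 4OHT without overlap. MEKi with 4OHT overlapped 4OHT by 1 library, clone b.

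The 2 nuclear receptor partners behaved differently from each other. Nr5a2 (ENSMUSG00000026398.14, chr1:136842571-136960448, minus strand, protein-coding) was at 348 and 329 CPM with DMSO and at 367, 337 and 387 CPM with 4OHT, groups that overlapped (log2 fold change 0.10 ± 0.11, adjusted p = 0.45; 95% interval -0.13 to 0.34). It was at 311, 317 and 358 CPM with MEKi, 259, 375 and 340 CPM with PP1, 308, 289 and 323 CPM with MEKi and 4OHT, and 320, 312 and 298 CPM with PP1 and 4OHT. The means ran only from 307 ± 17.3 CPM (MEKi with 4OHT, n = 3) to 363 ± 25.3 CPM (4OHT, n = 3), and each group overlapped its neighbours in that order. The lowest library, PP1 a, is also the one with the largest share of counts in the high-count loci.

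Nr0b1 (ENSMUSG00000025056.4, chrX:86191764-86195947, plus strand, protein-coding) was at 84.5 and 79.5 CPM with DMSO and at 65.2, 93.6 and 68.3 CPM with 4OHT, where clone b stood above the other two and above both controls. The log2 fold change was -0.13 ± 0.14 and did not pass the test (adjusted p = 0.49); without the 3 libraries of largest share in the high-count loci, clone b of 4OHT among them, it was -0.30 (adjusted p = 0.025), and with library totals as the only scaling -0.44 (adjusted p = 0.031). With PP1 the gene overlapped the controls, at 83.5, 80.9 and 70.3 CPM alone and 70.7, 93.7 and 84.1 CPM with 4OHT. With MEKi it was lower: Nr0b1 was at 45.4, 57.4 and 40.8 CPM with MEKi, and at 29.9, 27.9 and 28.5 CPM with MEKi and 4OHT, the lowest 3 libraries of all. In order, PP1 with 4OHT (82.8 ± 11.5 CPM, n = 3), DMSO (82 ± 3.56, n = 2), PP1 (78.2 ± 6.97, n = 3) and 4OHT (75.7 ± 15.6, n = 3) overlapped, and MEKi (47.9 ± 8.59, n = 3) and MEKi with 4OHT (28.8 ± 1.01, n = 3) lay below them without overlap.

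Zfp42 (ENSMUSG00000051176.6, chr8:43295063-43306980, minus strand, protein-coding) was the only member to rise with 4OHT alone. It was at 725 and 710 CPM with DMSO and at 1154, 1106 and 1141 CPM with 4OHT, a log2 fold change of 0.66 ± 0.07 (adjusted p = 2.0e-08), with no overlap and little spread within either group. This rise depends on the scaling: with library totals as the only scaling it was 0.36 and not called (adjusted p = 0.10), while the median of all genes moved from -0.02 to -0.32. It ranked 1334th from the highest of the 9874 genes. MEKi alone gave 625, 653 and 647 CPM, PP1 alone 604, 639 and 646 CPM, and MEKi with 4OHT 664, 632 and 642 CPM, all below both controls. PP1 with 4OHT gave 966, 892 and 845 CPM, above the controls and below all libraries with 4OHT alone. The order was 4OHT (1134 ± 24.5 CPM, n = 3), PP1 with 4OHT (901 ± 61.3, n = 3), DMSO (717 ± 11.1, n = 2), then MEKi with 4OHT (646 ± 16, n = 3), MEKi (642 ± 14.4, n = 3) and PP1 (630 ± 22.3, n = 3), of which the last 3 overlapped.

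The next comparisons ask how much of the 4OHT effect was left under each inhibitor. The time with an inhibitor alone is not clearly stated, so that time and 4OHT cannot be told apart in them. Dusp6, the gauge of the pathway, was lower in MEKi with 4OHT than in MEKi alone (-2.12 on the log2 scale). It was higher in PP1 with 4OHT than in PP1 alone (1.66). Between MEKi with 4OHT and MEKi alone, 1 member was called, lower, where 14.7% of all genes were called (7.65% higher, 7.03% lower). That member was Nr0b1, which fell further below its level with MEKi alone (-0.72 ± 0.14, adjusted p = 0.0018). Esrrb (-0.19 ± 0.07, adjusted p = 0.067), Tfcp2l1 (-0.42 ± 0.19, adjusted p = 0.17) and Tbx3 (-0.25 ± 0.11, adjusted p = 0.14) did not pass, with approximate 95% intervals of -0.35 to -0.04, -0.84 to -0.01 and -0.50 to -0.01 that are not adjusted for the number of genes. With clone as a replicate block, Esrrb (adjusted p = 0.043) and Tbx3 (adjusted p = 0.011) were called lower, and Esrrb was called lower in 8 of 16 alternatives in all, leaving out MEKi with 4OHT clone c among them. Zfp42 was at 0.01 ± 0.06 (95% interval -0.12 to 0.14) and Nr5a2 at -0.10 ± 0.10 (-0.31 to 0.11).

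With PP1, 4 members were called with 4OHT added, 2 higher and 2 lower, where 31.3% of all genes were called (18.4% higher, 12.8% lower). Zfp42 rose (0.52 ± 0.06, adjusted p = 1.1e-06) and Tfcp2l1 fell (-0.71 ± 0.19, adjusted p = 0.014). Tbx3 fell (-0.38 ± 0.11, adjusted p = 0.014), a call lost without PP1 clone c (adjusted p = 0.062), without the 3 libraries of largest share in the high-count loci (adjusted p = 0.053) and with library totals (adjusted p = 0.35). Esrrb rose, the opposite of its direction without inhibitor (0.23 ± 0.07, adjusted p = 0.015), and this was lost without PP1 with 4OHT clone a (0.13, adjusted p = 0.17), with only the libraries of the 2 groups in the fit (adjusted p = 0.090) and with library totals (adjusted p = 0.12). Nr0b1 (0.09 ± 0.13, adjusted p = 0.65) and Nr5a2 (-0.07 ± 0.10, adjusted p = 0.60) did not pass. For Nr5a2 the value without PP1 clone a was -0.22 (adjusted p = 0.024).

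**Figure D2:**
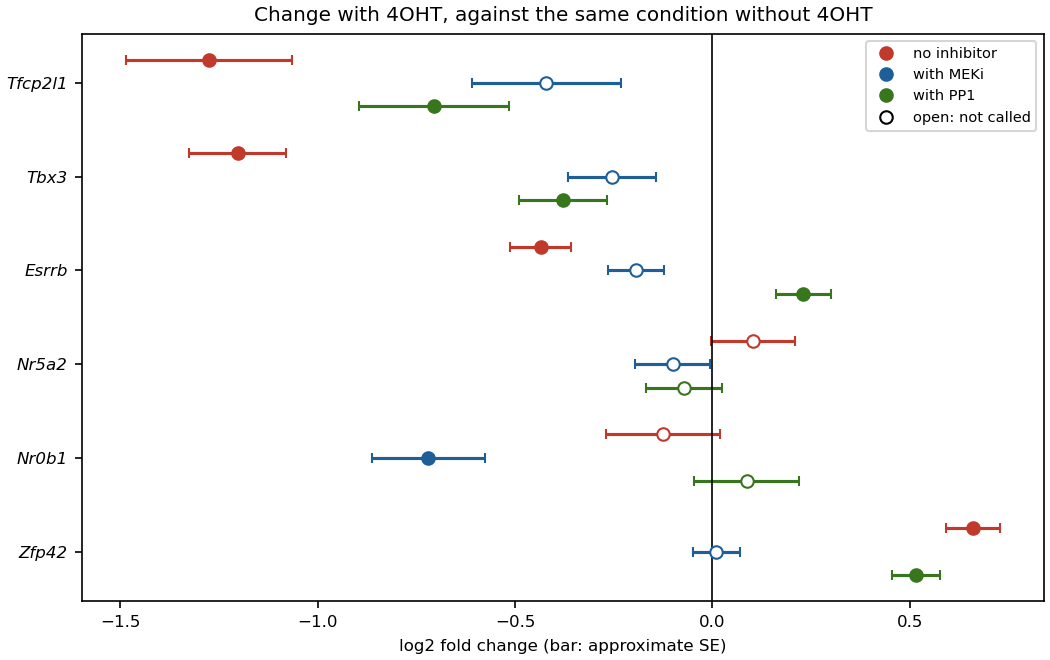
Log2 fold change of each gene with 4OHT (horizontal axis, ± 1 SE) without inhibitor, with MEKi and with PP1 (3 points a gene). Open points were not called at an adjusted p under 0.05. Tfcp2l1 and Tbx3 lie below 0 in all 3 settings, with the largest fall without inhibitor, and are not called with MEKi. Esrrb is lower without inhibitor and higher with PP1, and Nr0b1 is called only with MEKi.

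The difference between 4OHT effects was tested directly, as an interaction on the log2 scale. The unstated time with an inhibitor alone limits these tests too. Between MEKi and no inhibitor, 4 members passed, where 40.4% of all genes did (21.1% higher, 19.3% lower). The 4OHT effect was higher, that is less negative, with MEKi for Tbx3 (0.95 ± 0.17, adjusted p = 0.00014) and Tfcp2l1 (0.85 ± 0.28, adjusted p = 0.029), and lower for Zfp42 (-0.65 ± 0.09, adjusted p = 3.4e-06) and Nr0b1 (-0.59 ± 0.20, adjusted p = 0.025). With library totals the last 2 were -0.18 (adjusted p = 0.57) and -0.10 (adjusted p = 0.75) and were not called. The Tfcp2l1 difference was between 0.66 and 0.87 in the 10 alternatives that lost its call (adjusted p up to 0.13), 9 of which left out 1 library (DMSO b or c, 4OHT a or c, MEKi b or c, or any library with MEKi and 4OHT). That of Nr0b1 was -0.29 without the 3 libraries of largest share in the high-count loci (adjusted p = 0.14), -0.45 without 4OHT clone b (adjusted p = 0.057), -0.47 without MEKi clone b (adjusted p = 0.064), -0.61 without DMSO clone c (adjusted p = 0.078) and -0.68 without DMSO clone b (adjusted p = 0.05004). Esrrb was at 0.24 ± 0.11 and did not pass (adjusted p = 0.072), but did with library totals (0.70, adjusted p = 0.025). Between PP1 and no inhibitor, 2 members passed, where 26.5% of all genes did (15.1% higher, 11.4% lower): Tbx3 (0.82 ± 0.17, adjusted p = 0.0011) and Esrrb (0.67 ± 0.11, adjusted p = 4.7e-05). Tfcp2l1 was at 0.57 ± 0.28 (adjusted p = 0.17) and Zfp42 at -0.14 ± 0.09 (adjusted p = 0.25), and neither passed. With library totals Tfcp2l1 was at 1.05 and called (adjusted p = 0.0036), and DESeq2 called Zfp42 (-0.20, adjusted p = 0.048). Without the 3 libraries of largest share in the high-count loci, 5 members passed, among them Tfcp2l1 (0.87, adjusted p = 0.037). Without PP1 with 4OHT clone a the Zfp42 value was -0.27 (adjusted p = 0.023), and without PP1 clone a that of Nr5a2 was -0.31 (adjusted p = 0.030). Between PP1 and MEKi, 3 members passed, where 12.3% of all genes did (7.41% higher, 4.86% lower). These were Zfp42 (0.51 ± 0.08, adjusted p = 0.00019), Esrrb (0.42 ± 0.10, adjusted p = 0.0053) and Nr0b1 (0.81 ± 0.19, adjusted p = 0.0082). With library totals the Zfp42 and Esrrb calls were lost (adjusted p = 0.37 and 0.53).

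Each inhibitor alone was also set against DMSO. All of these cells, the controls included, had been held in PD173074 for 24 h, and the time with an inhibitor alone is not clearly stated. MEKi lowered Nr0b1 (-0.79 ± 0.15, adjusted p = 0.013), 23rd from the lowest of the 9874 genes, and this was the only member called, where 0.53% of all genes were (0.0805% higher, 0.449% lower). The value stayed between -0.92 and -0.64 in all alternatives, and the call was lost when DMSO clone b (adjusted p = 0.22), DMSO clone c (0.29), MEKi clone a (0.083) or MEKi clone c (0.088) was left out. PP1 called none of the 6 by edgeR or DESeq2, where edgeR called 0.241% of all genes (0.0805% higher, 0.161% lower), and 1 member, Zfp42 (-0.19 ± 0.07, adjusted p = 0.29), had an unadjusted p under 0.05. The approximate 95% interval of Nr0b1 with PP1 was -0.39 to 0.25. PP1 against MEKi called none of the 6 by edgeR, where 0.0738% of all genes were called, all of them higher with PP1, and 2 members had an unadjusted p under 0.05. Nr0b1 was higher with PP1 by 0.72 ± 0.14 (adjusted p = 0.051; DESeq2 called it, at 0.00093, as did the fit with clone as a replicate block, at 0.0021, and the fit without MEKi clone b, at 0.0075), and Tbx3 was at 0.31 ± 0.11 (adjusted p = 0.98).

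Within the cells given 4OHT, MEKi changed all 6 members, where 56.8% of all genes were called (28.4% in each direction). These values use the same 4OHT libraries as the comparison with DMSO, so the 2 are not independent. Tfcp2l1 was higher by 1.31 ± 0.19 (adjusted p = 7.1e-05), Tbx3 by 0.70 ± 0.11 (adjusted p = 2.7e-05) and Esrrb by 0.18 ± 0.07 (adjusted p = 0.035). Zfp42 was lower, at -0.81 ± 0.06 (adjusted p = 4.6e-11), as were Nr0b1, at -1.38 ± 0.14 (adjusted p = 4.0e-08), and Nr5a2, at -0.25 ± 0.10 (adjusted p = 0.032). The Esrrb call was lost in 8 of 16 alternatives, among them each of 4OHT clones a and b and of MEKi with 4OHT clones a and c left out (0.13 to 0.16, adjusted p up to 0.15). The Nr5a2 value turned to 0.10 (adjusted p = 0.70) with library totals, a scaling that moved the median of all genes here from 0.06 to 0.40, and was -0.22 (adjusted p = 0.060) without 4OHT clone c.

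PP1 within the cells given 4OHT changed 4 members, 3 higher and 1 lower, where 41.8% of all genes were called (21.4% higher, 20.5% lower). Tbx3 was higher by 0.88 ± 0.11 (adjusted p = 3.6e-06), Tfcp2l1 by 0.81 ± 0.19 (adjusted p = 0.0043) and Esrrb by 0.59 ± 0.07 (adjusted p = 4.0e-07). Zfp42 was lower, at -0.33 ± 0.06 (adjusted p = 8.6e-05), and with library totals at -0.11 (adjusted p = 0.65). Nr5a2, at -0.23 ± 0.10, did not pass (adjusted p = 0.057) but did in 12 of 16 alternatives, the fit with clone as a replicate block among them (adjusted p = 0.049). Nr0b1 was at 0.14 ± 0.13 (adjusted p = 0.43; 95% interval -0.15 to 0.43), and without the 3 libraries of largest share in the high-count loci at 0.31 (adjusted p = 0.016).

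**Figure D3:**
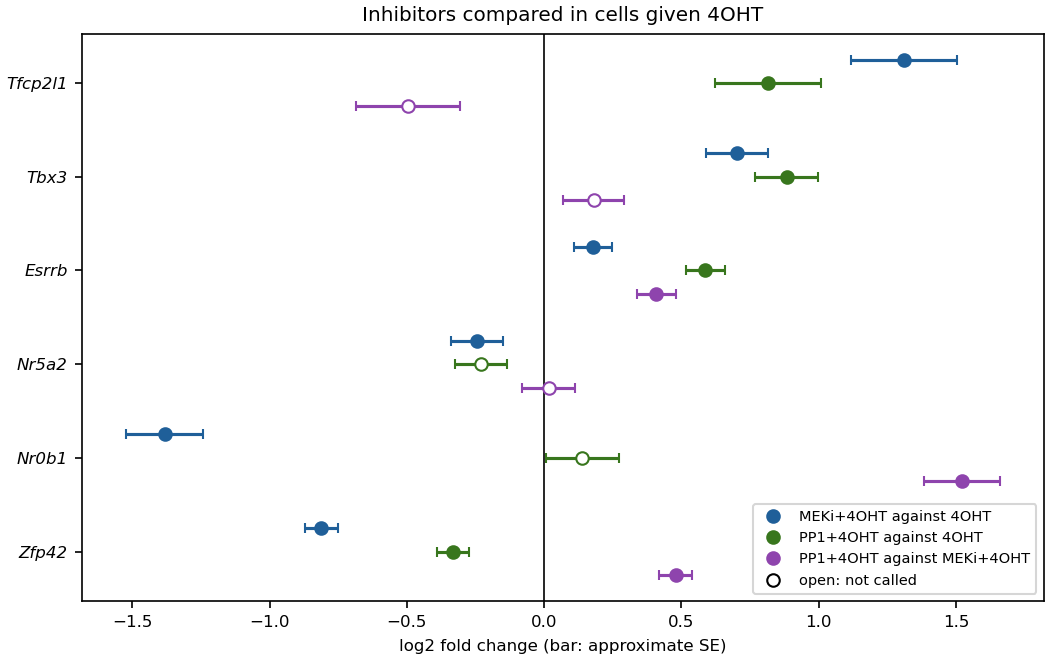
Log2 fold change of each gene (horizontal axis, ± 1 SE) within the cells given 4OHT: MEKi with 4OHT and PP1 with 4OHT, each against 4OHT, and PP1 with 4OHT against MEKi with 4OHT. Open points were not called. Tfcp2l1, Tbx3 and Esrrb are higher and Zfp42 lower with either inhibitor, while Nr0b1 is lower with MEKi only.

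Set directly against each other in the presence of 4OHT, the inhibitors differed for 3 members, all higher with PP1, where 28.2% of all genes were called (15.2% higher, 13% lower). Nr0b1 differed most (1.52 ± 0.14, a 2.87-fold difference, adjusted p = 4.4e-08, 130th from the highest of the 9874 genes), followed by Zfp42 (0.48 ± 0.06, adjusted p = 1.3e-06) and Esrrb (0.41 ± 0.07, adjusted p = 9.6e-05). With library totals the Zfp42 and Esrrb calls were lost (adjusted p = 0.14 and 0.26) and that of Nr0b1 was not. Tfcp2l1 was at -0.50 ± 0.19 (adjusted p = 0.071; 95% interval -0.91 to -0.08), and was called in 5 alternatives, with library totals at -0.62 (adjusted p = 0.012), and Tbx3 at 0.18 ± 0.11 (adjusted p = 0.25; with clone as a replicate block 0.19, adjusted p = 0.047). Nr5a2 was at 0.02 ± 0.09 (95% interval -0.19 to 0.23). The doses of the inhibitors differ and each was used at 1 dose, so these are differences between the treatments as given.

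**Figure D4:**
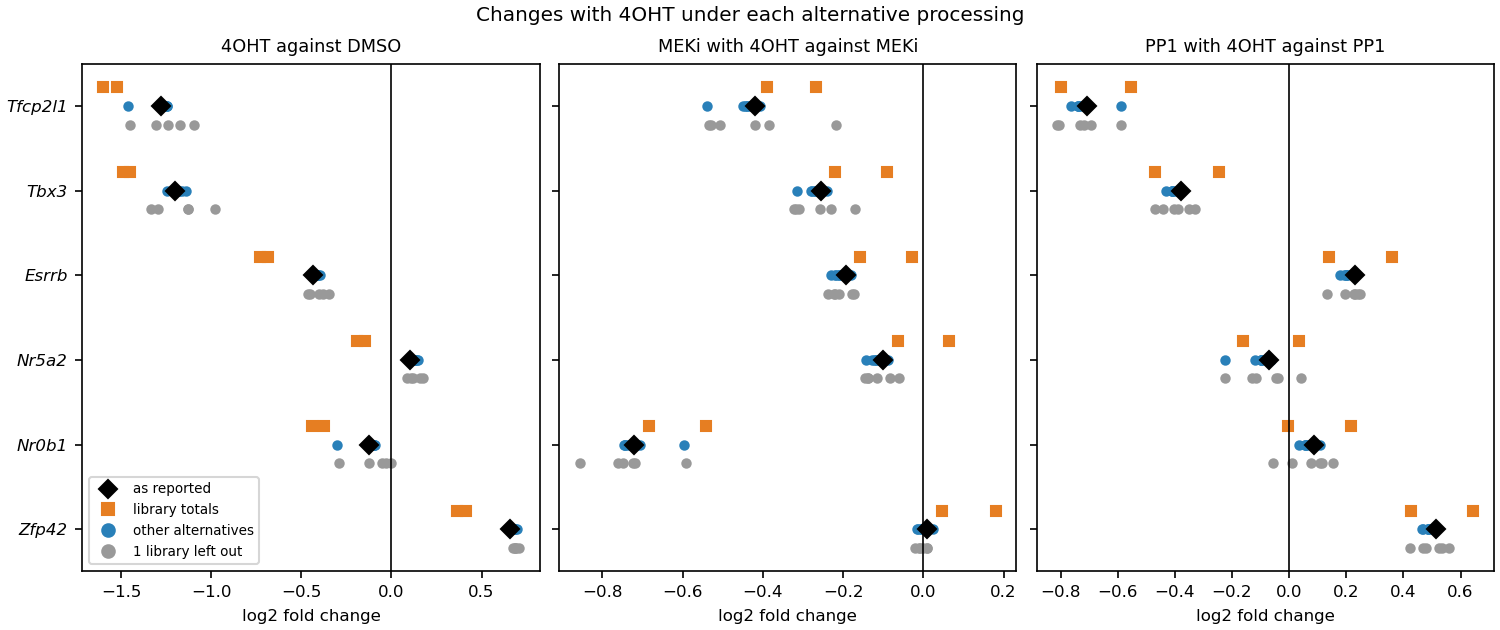
Log2 fold change of each gene with 4OHT (horizontal axis) in the 3 settings under every processing alternative, 1 point an alternative; library totals as the only scaling are squares, and fits with 1 library left out are grey. The falls of Tfcp2l1 and Tbx3 without inhibitor lie well below 0 under each alternative, at -1.10 or lower and -0.98 or lower, and Zfp42 without inhibitor runs from 0.36 with library totals to 0.71.

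Other genes of the same network give the setting. Of 25 other naive pluripotency genes, all tested, 5 rose and 10 fell with 4OHT alone (median log2 fold change -0.19, all genes -0.02), where 25.7% of all genes rose and 26.3% fell. Prdm14, a regulator of the naive state, fell by 3.28 on the log2 scale, from 52.1 ± 1.58 to 5.56 ± 1.52 CPM, and Fgf4, the FGF ligand of these cells, fell by 1.23. Zfp57, a zinc finger gene that protects imprints, rose like Zfp42 (1.38), from 355 ± 10.8 to 924 ± 10.8 CPM. Of the same 25 genes, 1 rose and 11 fell with 4OHT under MEKi, and 7 rose and 9 fell under PP1. Of all genes, 7.65% rose and 7.03% fell under MEKi, and 18.4% rose and 12.8% fell under PP1; these shares and the 52% called with 4OHT alone are the background for the lists that follow too. With library totals, 6 of them were called under MEKi, against 12 here.

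Among 26 other nuclear receptor genes, 5 rose and 6 fell with 4OHT alone (median -0.08), a smaller share than the 52% of all genes called. Nr4a1, an immediate early receptor gene, rose by 2.56, Esr1 by 1.68 and Rarg, a retinoic acid receptor gene, by 1.29. Whether any Esr1 reads came from the cRAF-ErT2 fusion in these cells was not tested. Thra fell by 1.67, but it overlaps Nr1d1 on the opposite strand, so its reads are uncertain. Under MEKi 3 rose and 1 fell, and under PP1 2 rose and 3 fell. Of 22 genes for coregulators of ESRRB and the nuclear receptors, 9 rose and 4 fell (median 0.12, which turned to -0.17 with library totals), beside the same 52%. They included Ncoa3, a coactivator of ESRRB (0.76), Rcor1, a corepressor scaffold (1.06), and Ep300, a histone acetyltransferase (0.69); Rcor1, Ncoa3 and Ep300 each overlap other annotated genes, and Pim1 below overlaps an antisense gene, so their reads are uncertain. Under MEKi 2 of the 22 rose and 5 fell, and under PP1 8 rose and 5 fell.

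Of 14 LIF and STAT3 pathway genes, the pathway that sustains Tfcp2l1, 5 rose and 3 fell with 4OHT alone (median 0.09, and -0.20 with library totals), a share near the 52% of all genes called. Lifr, the LIF receptor gene, fell by 1.28, from 250 ± 6.87 to 103 ± 5.13 CPM, while Pim1 rose by 1.99 and the kinase gene Jak2 by 1.28. Elsewhere in the list, Junb was called higher (3.10) and Cish lower (-0.84). Socs3 (-0.11), Bcl3 (-0.006) and Pim3 (-0.34) were not called. STAT3 activity was not measured. Under MEKi 2 rose and 3 fell, and under PP1 5 rose and 0 fell, beside 14.7% and 31.3% of all genes called. Of 13 TFCP2 and T-box relatives, 12 were tested, and 2 rose and 2 fell (median -0.04). Tfcp2, a close relative of Tfcp2l1, fell by 0.95, from 55.6 ± 1.51 to 28.5 ± 3.63 CPM, and Grhl3, a grainyhead gene, rose by 1.60.

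Markers of other cell types moved in the same comparison. The summed level of 10 primitive endoderm markers was 258 to 287 CPM with DMSO and 117 to 137 CPM with 4OHT, with 3 of 9 tested markers lower and 0 higher. Lama1 (-1.16 on the log2 scale), at 103.5 to 319.4 CPM over all libraries, made up most of this sum, and every other marker stayed at or below 9.34 CPM. Dab2 (-1.93) and Sox7 (-2.01) were also called lower. Gata4 (0.34), Gata6 (0.04), Cubn (0.43), Foxa2 (1.89), Pdgfra (-0.19) and Hnf4a (-0.75) were not called. That of 10 trophoblast markers was 155 to 170 CPM with DMSO and 509 to 602 CPM with 4OHT, with 4 of 8 tested markers higher and 1 lower. Tead4 (2.03), at 117.7 to 557.4 CPM over all libraries, made up most of it; Tfap2c, at most 40.5 CPM, fell by 1.08, and the other 8 markers stayed at or below 12.8 CPM. The 9 formative and primed epiblast markers summed to 293 to 306 CPM with DMSO, 445 to 475 CPM with 4OHT and 153 to 170 CPM with MEKi and 4OHT, and 4 of them were higher and 2 lower with 4OHT alone. The part of other cell states in the members' changes was not tested, and fewer cells of a kind and less new RNA in each cell cannot be told apart in bulk RNA.

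Finally, the genes whose levels across the 17 libraries were most like each member were listed by Pearson's r of log2 CPM among 9583 genes. The libraries share treatment groups, so these values are a description. Tfcp2l1 was most like Col4a1 (0.956), Cth (0.954) and Prdm14 (0.949), and Tbx3 most like Adamts9 (0.952), Kyat3 (0.946) and Eya1 (0.945). Esrrb was most like Dpy30 (0.943), Elovl6 (0.934) and Hsd17b11 (0.926). Nr0b1 was most like Zic5 (0.947), Id3 (0.929) and Sgk1 (0.928), and Nr5a2 most like Ica1l (0.910), Lin52 (0.905) and Sgms1 (0.901). Zfp42 was most like Wdr43 (0.989), Naa25 (0.986) and Ppp2r5a (0.985). By Spearman's rho, 1 of the 3 nearest genes was shared for Esrrb, Tfcp2l1 and Nr5a2 and 0 for the other members. With library totals, 2 were shared for Esrrb, Tfcp2l1 and Tbx3, 1 for Nr0b1 and Zfp42 and 0 for Nr5a2.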

How the data were processed

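The deposited table holds raw counts per gene symbol for 17 libraries, with no normalization by the authors. Per the submitters' processing notes, STAR, featureCounts and the build mm10 were used; what is not given in the sources used here is versions, annotation, feature type, strand setting and multimapping. edgeR 4.0.16 (R 4.3.3) was used with TMM scaling and the filterByExpr filter. A quasi-likelihood model in robust mode had 1 term for each group over all 17 libraries (11 residual degrees of freedom, common biological coefficient of variation 0.0977), with Benjamini-Hochberg adjustment over 14907 genes in each of 12 comparisons, 3 of them interactions. A gene was called at an adjusted p under 0.05. Standard errors are the absolute log2 fold change over the square root of F, and 95% intervals use them; both are approximate. The scripts were tested on simulated data.

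Library totals of 5239690 to 11093390 mean that 3 counts, the least that can be told from 0, are 0.247 to 0.766 CPM. Clone letters in the labels pair libraries of a clone. Deviations from group means correlated at 0.086 on average over 40 same-clone pairs (-0.147 to 0.362) and -0.043 over 80 other pairs. Clone as a replicate block was an alternative, as were DESeq2 1.42.0 and its size factors, library totals, 2 filters, the high-count loci (mean count of at least 1000, share following that of Cdk8 with r of at least 0.95) left out, fewer groups, and each library left out; leaving out 3 libraries together was chosen after seeing the data.

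The members and the lists were chosen with earlier results of these data known. From each list up to 4 genes called in 4OHT against DMSO averaging 3 or more in log2 CPM and with the largest change could be named, and for each member the 3 most similar genes. Some further list genes are given beside these to limit their reading. Gene positions come from GENCODE M21 and promoters from RefSeq, matched by symbol.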

Additional observations from a re-analysis of the deposited data

Results flagged for a closer look

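For 9 results the effect of 4OHT on a member differed between settings by a test of the difference itself (edgeR interaction, log2 scale, adjusted over all genes). With MEKi minus without inhibitor, the differences were 0.855 for Tfcp2l1, 0.949 for Tbx3, -0.594 for Nr0b1 and -0.651 for Zfp42. In Tbx3 and Tfcp2l1 this is a smaller fall under MEKi, itself not called there. In Zfp42 it is a rise seen without MEKi and at 0.01 with it, and in Nr0b1 a fall seen with MEKi. With PP1 minus without inhibitor they were 0.666 for Esrrb and 0.823 for Tbx3. With PP1 minus with MEKi they were 0.424 for Esrrb, 0.806 for Nr0b1 and 0.506 for Zfp42. In all 9, time under an inhibitor and 4OHT cannot be told apart, since the time with an inhibitor alone is not clearly stated. The calls for Tfcp2l1 and Nr0b1 between MEKi and no inhibitor are the least stable of these, each lost in several fits with 1 library left out. Scaled by library totals alone, the Zfp42 and Nr0b1 differences between MEKi and no inhibitor were -0.18 and -0.10 and were not called (adjusted p = 0.57 and 0.75), and those of Esrrb and Zfp42 between PP1 and MEKi were not called either (adjusted p = 0.53 and 0.37).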

How the results depend on the processing

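Over all comparisons, 1133 of 1230 member values kept their call status and side, 44 lost a call, 51 gained one and 2 reversed. Both reversals were Nr5a2 in MEKi with 4OHT against 4OHT, at 0.10 with library totals and 0.055 with the high-count loci left out as well; the cause was not tested. A further 54 values changed sign while called in neither fit, the largest at 0.279 in size.

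With library totals, which moved the median of all genes from -0.02 to -0.32 in 4OHT against DMSO, the share of higher calls there went from 49.4% to 21.1%. Called genes went from 2188 to 1130 in MEKi with 4OHT against MEKi (52.1% and 82.9% higher), from 4661 to 2668 in PP1 with 4OHT against PP1 (59% and 76.6% higher), from 79 to 20 in MEKi against DMSO (15.2% and 5% higher), from 36 to 14 in PP1 against DMSO (33.3% and 57.1% higher), from 11 to 3 in PP1 against MEKi, from 4199 to 2153 in PP1 with 4OHT against MEKi with 4OHT (53.9% and 30.7% higher), and from 1829 to 514 in the interaction of PP1 and MEKi. The shares of higher calls without a large move in count were 50% and 80% in MEKi with 4OHT against 4OHT, 51.1% and 79.8% in PP1 with 4OHT against 4OHT, and 52.3% and 86.5%, and 57% and 89.3%, in the interactions of MEKi and of PP1 with no inhibitor. Members called went from 4 to 2 in PP1 with 4OHT against PP1, from 2 to 4 in the interaction of PP1 and no inhibitor, and from 3 to 1 in that of PP1 and MEKi.

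In MEKi against DMSO, DESeq2 called 132 genes, the fit with clone as a replicate block 120 and the 2 groups alone 23. In PP1 against DMSO, DESeq2 called 85, the 2 groups alone 6, the fit without the high-count loci 23 and the fit without 3 libraries 55. In PP1 against MEKi these were 20 by DESeq2, 3 with the 2 groups alone and 18 without the 3 libraries; 1 member was called there by DESeq2, without a filter, with the replicate block and without the 3 libraries. In MEKi with 4OHT against MEKi, 2 members were called with DESeq2, with its size factors, without the high-count loci, with at least 10 counts and without the 3 libraries, and 3 with the replicate block and with the 2 groups alone. In the interaction of PP1 and no inhibitor, 5 members were called without the 3 libraries. The replicate block changed no member's call other than those given beside the results.

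With each library left out in turn, called genes ran from 1380 to 1980 in MEKi with 4OHT against MEKi, from 19 to 52 in MEKi against DMSO, from 3 to 32 in PP1 against DMSO and from 6 to 13 in PP1 against MEKi. Members called ran from 1 to 2, 0 to 1, 0 to 0 and 0 to 1 in these, and from 2 to 4 in the interaction of MEKi and no inhibitor and 2 to 3 in that of PP1. DMSO has only 2 libraries, so without 1 of them the lone control is taken to vary like the other groups. Among the members, Nr0b1 had the fewest counts and Tfcp2l1 the largest standard errors.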
